A study of Mus musculus with 10 samples.

Results

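SMB56-shSufu cells treated with THZ1 were compared with the same cells treated with DMSO, gene by gene, by RNA sequencing. The comparison uses 4 of the study's 10 libraries, 2 with 0.1 µM THZ1 and 2 with DMSO, each after 8 h, and every gene of their deposited table, 12057 in all. SMB56 is a line of spontaneous medulloblastoma cells from Ptch+/- mice that grows as neurospheres, and SMB56-shSufu stably expresses a short hairpin RNA against Sufu. All 4 libraries therefore share the Ptch+/- genotype and the hairpin, and differ in the compound. The labels give neither the hairpin's sequence and promoter nor whether the line is 1 clone. The other 6 libraries come from SMB56 without the hairpin, given DMSO, THZ1 at 0.1 µM, or the SMO inhibitor GDC-0449 at 1 µM, and enter here only to check Sufu. The labels number the libraries without saying that they are separate cultures, so the p-values below measure the spread between libraries, which may be technical.

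THZ1 binds covalently to CDK7, the kinase of the general transcription factor TFIIH, which phosphorylates the tail of RNA polymerase II at the start of genes and also activates cell cycle CDKs. THZ1 also binds CDK12 and CDK13, which act in elongation. In the hedgehog pathway PTCH1 restrains SMO, SMO signals through the primary cilium to release GLI transcription factors from SUFU, and GLI activates Gli1, Ptch1 and growth genes. Loss of SUFU acts below SMO, so SMO inhibitors no longer reach the pathway in such cells, and granule neuron progenitors of the cerebellum with an active pathway are the cells from which this kind of medulloblastoma arises.

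Each library held 30100041 to 33254885 counts. The targeted gene was checked in every library on the deposited FPKM (fragment counts scaled to gene length and depth). The levels below are set across 3 tables, and nothing in the labels or headers says whether those were normalized together. The SMB56 DMSO libraries carry the same Sufu values in both tables that hold them. Sufu stood at 3.36 and 3.19 FPKM in the SMB56-shSufu DMSO libraries and at 12.7 and 11.6 FPKM in the SMB56 DMSO libraries. With THZ1 it was at 11.7 and 10.1 FPKM in SMB56-shSufu and at 18.5 and 19.7 FPKM in SMB56, and with GDC-0449 in SMB56 at 10.6 and 9.78 FPKM. The hairpin line was thus the lowest for Sufu under DMSO, and its THZ1 libraries lay near the level of DMSO-treated SMB56. Of 10 markers of granule neuron progenitors and medulloblastoma, 9 were in the table, Pax6 being the exception. Of these 9, 5 were higher and 2 lower with THZ1 at an edgeR adjusted p under 0.05. The 9 summed to 537 to 634 FPKM with DMSO and 876 to 932 FPKM with THZ1. In CPM (counts scaled to the effective library size after TMM) the sums were 2335 and 2195 CPM against 4469 and 4492 CPM. Of the markers of other cells, 1 of 8 for microglia (Cd68), 1 of 7 for lymphocytes (Lck), 1 of 6 for fibroblasts (Fn1), 0 of 6 for endothelial and mural cells, 2 of 8 for astrocytes, 2 of 6 for mature neurons and 4 of 7 for the oligodendrocyte lineage were in the table, in which every gene exceeded 1 FPKM in some library. The astrocyte and stem cell markers found, Slc1a3 and Nes, summed to 268 and 235 CPM with DMSO and 536 and 559 CPM with THZ1 (25.1 and 22.9 FPKM against 28.3 and 28.4 FPKM). Of these 2, however, 1 was higher and 1 lower with THZ1 at an edgeR adjusted p under 0.05. The 4 oligodendrocyte lineage markers found summed to 392 and 351 CPM with DMSO and 715 and 689 CPM with THZ1, and 1 was higher and 1 lower at the same threshold. The part of such cells in the results was not tested. In such bulk samples fewer cells of a type and less RNA per cell cannot be told apart.

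Of 11886 genes tested, 7355 differed between THZ1 and DMSO at an edgeR adjusted p under 0.05 (61.9%), which is what called means below. Of these, 3511 were higher with THZ1 (29.5% of genes tested) and 3844 lower (32.3%). At least 2-fold changes were called for 3370 genes (28.4%), 1506 higher and 1864 lower, and at least 4-fold changes for 194 higher and 286 lower genes. In 9627 genes the THZ1 and DMSO libraries did not overlap (81%). Treatment separated the libraries on the first principal component, which held 89.1% of the variance. Levels below are in CPM, and every log2 fold change is THZ1 over DMSO, ± its standard error.

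The labels name no spike-in, and each fold is measured against the rest of the transcriptome. The fold of the median gene stood at -0.043 under TMM, at -0.45 with library size alone, at -0.21 with upper quartile scaling and at -1.37 when scaled to the mitochondrially encoded protein genes, which RNA polymerase II does not transcribe. All directions below are therefore relative to the median gene. The mitochondrially encoded genes took 5.83% and 8.18% of the counts with DMSO and 12.9% in each THZ1 library. Of 45 gene lists described here, 25 had a median fold above 0 under TMM, of which 12 stayed above 0 with library size alone and 2 under mitochondrial scaling. The 20 lists with a median below 0 stayed below it under each of these scalings. Where a list is said to have risen, its median under mitochondrial scaling follows. Counts of called members stand against 29.5% higher and 32.3% lower over all genes tested.

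**Figure D1:**
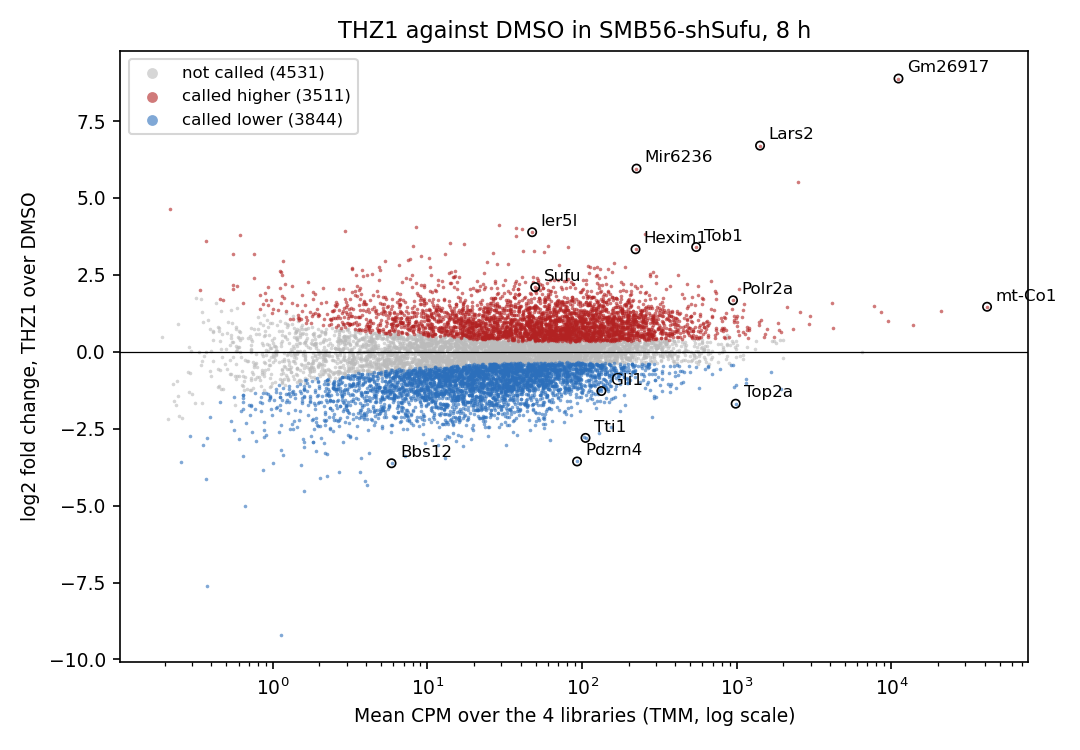
Log2 fold change of each gene, THZ1 over DMSO, against its mean CPM over the 4 libraries on a log scale. Each point is a gene, in red where called higher (3511), in blue where called lower (3844) and in grey where not called (4531). Named genes are circled. In the top of 5 equal bins of mean CPM, 51.5% of genes were called higher.

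Promoters of genes that moved far are shown first, since the results turn on which genes rose and which fell. Of the 24 genes chosen by size of fold, 12 in each direction, the promoters of 3 that rose, chosen after their values were seen, and of the 3 of largest fall are printed, from 250 bases before the start to 50 after it, 5′ to 3′ (RefSeq, build GRCm38.p6). Ier5l lies at chr2:30474150-30474449 on the minus strand, Rbm12 at chr2:156111916-156112215 on the minus strand and Hexim1 at chr11:103116075-103116374 on the plus strand. Bbs12 lies at chr3:37312304-37312603 on the plus strand, Pdzrn4 at chr15:92396560-92396859 on the plus strand and Nme6 at chr9:109832544-109832843 on the plus strand. Capitals mark matches, on either strand, to the motifs searched, which in these promoters were the GC box (GGGCGG) and the CCAAT box (CCAAT). The others searched were the TATA box, ETS, E2F and GLI sites spelled below, the cyclic AMP response element (TGACGTCA), the AP-1 site (TGAGTCA) and the NRF1 core.
Ier5l: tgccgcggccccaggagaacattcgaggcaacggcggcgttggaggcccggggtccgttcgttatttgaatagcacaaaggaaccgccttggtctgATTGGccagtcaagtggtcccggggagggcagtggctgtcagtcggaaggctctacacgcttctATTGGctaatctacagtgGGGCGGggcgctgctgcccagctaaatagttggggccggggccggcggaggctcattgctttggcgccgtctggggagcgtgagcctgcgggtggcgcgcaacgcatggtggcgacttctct
Rbm12: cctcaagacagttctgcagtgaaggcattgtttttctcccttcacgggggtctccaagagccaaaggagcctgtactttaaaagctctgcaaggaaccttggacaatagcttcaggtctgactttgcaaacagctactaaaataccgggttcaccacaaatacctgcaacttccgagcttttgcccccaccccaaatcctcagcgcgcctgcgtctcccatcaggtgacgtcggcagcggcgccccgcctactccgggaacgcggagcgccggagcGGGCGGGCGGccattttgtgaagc
Hexim1: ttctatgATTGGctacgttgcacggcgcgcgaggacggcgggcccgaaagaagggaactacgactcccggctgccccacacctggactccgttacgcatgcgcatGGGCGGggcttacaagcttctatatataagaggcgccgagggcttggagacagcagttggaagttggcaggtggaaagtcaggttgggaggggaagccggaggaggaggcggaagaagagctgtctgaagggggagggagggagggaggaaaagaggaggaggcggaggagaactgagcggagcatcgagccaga
Bbs12: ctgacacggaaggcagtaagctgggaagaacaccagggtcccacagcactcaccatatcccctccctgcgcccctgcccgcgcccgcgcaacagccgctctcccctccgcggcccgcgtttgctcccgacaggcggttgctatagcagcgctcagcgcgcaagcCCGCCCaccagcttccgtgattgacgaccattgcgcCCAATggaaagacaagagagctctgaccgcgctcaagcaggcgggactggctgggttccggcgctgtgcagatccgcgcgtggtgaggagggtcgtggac
Pdzrn4: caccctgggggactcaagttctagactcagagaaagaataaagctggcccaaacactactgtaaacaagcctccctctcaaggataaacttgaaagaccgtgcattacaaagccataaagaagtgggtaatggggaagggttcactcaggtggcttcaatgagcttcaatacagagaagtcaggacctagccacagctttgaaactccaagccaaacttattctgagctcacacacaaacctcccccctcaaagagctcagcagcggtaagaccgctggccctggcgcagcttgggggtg
Nme6: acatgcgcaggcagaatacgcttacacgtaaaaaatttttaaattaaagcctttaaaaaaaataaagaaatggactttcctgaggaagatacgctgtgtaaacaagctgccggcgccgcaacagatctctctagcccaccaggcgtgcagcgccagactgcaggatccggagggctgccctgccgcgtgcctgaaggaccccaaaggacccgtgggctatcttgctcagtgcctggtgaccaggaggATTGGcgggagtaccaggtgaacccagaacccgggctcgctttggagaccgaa

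Over all 27025 promoters of the table, and over the 8726 of tested genes that matched by symbol, the GC box stood in 35.9% and 67.4%. It stood in 70.8% of the 1030 promoters of genes raised at least 2-fold and in 62.1% of the 1375 of genes lowered at least 2-fold. The core of ETS factor sites (CCGGAAG) stood in 9.12% of all promoters and 19.9% of those of tested genes. It was in 14.0% of promoters of raised genes and in 22.8% of those of lowered genes. The CCAAT box stood in 39.7% of raised and 43.7% of lowered promoters, against 37.9% of all and 39.9% of tested promoters. The E2F site (TTTCCCGC) was in 1.75% and 2.84%, against 1.11% of all and 2.41% of tested promoters. The TATA box (TATAAA) was in 7.38% and 6.62%, against 14.2% of all and 6.05% of tested promoters, and in 10.0% of the 120 promoters of genes raised at least 4-fold. A GLI site (GACCACCCA) was found in 0.194% and 0.291%, against 0.244% of all and 0.241% of tested promoters. These shares are a description of letters in the window, given with no test.

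Among named genes the largest rise was in Mir6236, annotated as a microRNA gene, which went from 8.06 and 6.22 CPM to 414 and 469.8 CPM (log2 fold change 5.95 ± 0.20, edgeR adjusted p 1.6e-09). The labelled library kit is not one for small RNAs, and which RNA gave these reads was not tested. Ier5l, a relative of the immediate early gene Ier5, stood at 8.06 and 3.99 CPM with DMSO and 87.1 and 90.9 CPM with THZ1 (log2 fold change 3.89 ± 0.26, edgeR adjusted p 3.3e-07). Both THZ1 libraries lay far above both DMSO libraries, of which library 1 was the higher. Genes were named by fold only where the groups did not overlap, so the lack of overlap in them was set by the choice. Rbm12, an RNA-binding protein gene, went from 37.8 and 29.4 CPM to 495 and 450.1 CPM (log2 fold change 3.81 ± 0.18, edgeR adjusted p 2.8e-08), but it overlaps another gene of the table, and reads of overlapping genes cannot be told apart. Hexim1, which holds the elongation kinase P-TEFb inactive in the 7SK complex, stood at 44.3 and 35.7 CPM with DMSO and 413 and 393 CPM with THZ1 (log2 fold change 3.33 ± 0.17, edgeR adjusted p 4.5e-08). Tob1, an antiproliferative factor that recruits the CCR4-NOT deadenylase, went from 112 and 76.2 CPM to 994 and 1001 CPM (log2 fold change 3.40 ± 0.21, edgeR adjusted p 1.6e-07). In both genes the THZ1 libraries lay close together and far from the DMSO libraries.

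A further 6 genes of the 12 rose by 3.22 to 3.54 on the log2 scale. They are Ly6g5b (3.54 ± 0.22), the transcriptional repressor Hic2 (3.45 ± 0.16), the immune checkpoint receptor Lag3 (3.27 ± 0.18), the mRNA decay factor Zfp36 (3.27 ± 0.16), the lysosomal glycoprotein gene Cd68 (3.25 ± 0.19) and the AP-1 subunit Junb (3.22 ± 0.20). Their edgeR adjusted p-values were 2.6e-08 to 1.9e-07. Junb overlaps another gene of the table. Lag3 and Cd68 are known from immune cells. Among 8 markers of microglia and macrophages Cd68 was the only one in the table, at 12.6 and 8.81 CPM with DMSO and 103 and 101 CPM with THZ1, and Ptprc, Csf1r, Aif1, Cx3cr1, Itgam, C1qa and Tyrobp were not in it. Of the lymphocyte markers Cd3e, Cd3g, Cd79a, Ms4a1 and Nkg7 were not in the table, and Lck was at 2.56 and 5.85 CPM with DMSO and 3.90 and 4.64 CPM with THZ1.

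Pdzrn4, which encodes a protein with PDZ and RING domains, fell from 159.6 and 182 CPM to 14.4 and 14.5 CPM (log2 fold change -3.57 ± 0.16, edgeR adjusted p 1.5e-08). Bbs12, a chaperonin-like protein needed to assemble the ciliary BBSome, stood at 9.50 and 12.2 CPM with DMSO and 1.05 and 0.69 CPM with THZ1 (log2 fold change -3.62 ± 0.31, edgeR adjusted p 1.2e-06). Nme6, of the nucleoside diphosphate kinase family, went from 14.5 and 11.5 CPM to 1.26 and 1.19 CPM (log2 fold change -3.40 ± 0.27, edgeR adjusted p 7.6e-07). In all 3 both DMSO libraries were high and both THZ1 libraries low, with no overlap, which the rule of choice required.

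The other 9 genes of largest fall had folds of -3.07 to -2.84, with edgeR adjusted p-values of 1.2e-07 to 1.0e-06. They are Btbd17 (-3.07 ± 0.19), the claudin gene Cldn2 (-3.02 ± 0.22), Thg1l, which adds a guanylate to histidine tRNA (-3.02 ± 0.23), the cohesion clamp loader subunit Dscc1 (-2.98 ± 0.24) and Ccdc14 (-2.91 ± 0.21). The RNase P subunit Rpp40 (-2.88 ± 0.22), Tcf19 (-2.88 ± 0.17), the centriole protein Spice1 (-2.85 ± 0.24) and Ccdc58 (-2.84 ± 0.23) complete them. Tcf19 had the highest CPM of these 9 with DMSO, at 98.8 and 118 CPM, and stood at 15.9 and 13.6 CPM with THZ1.

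**Figure D2:**
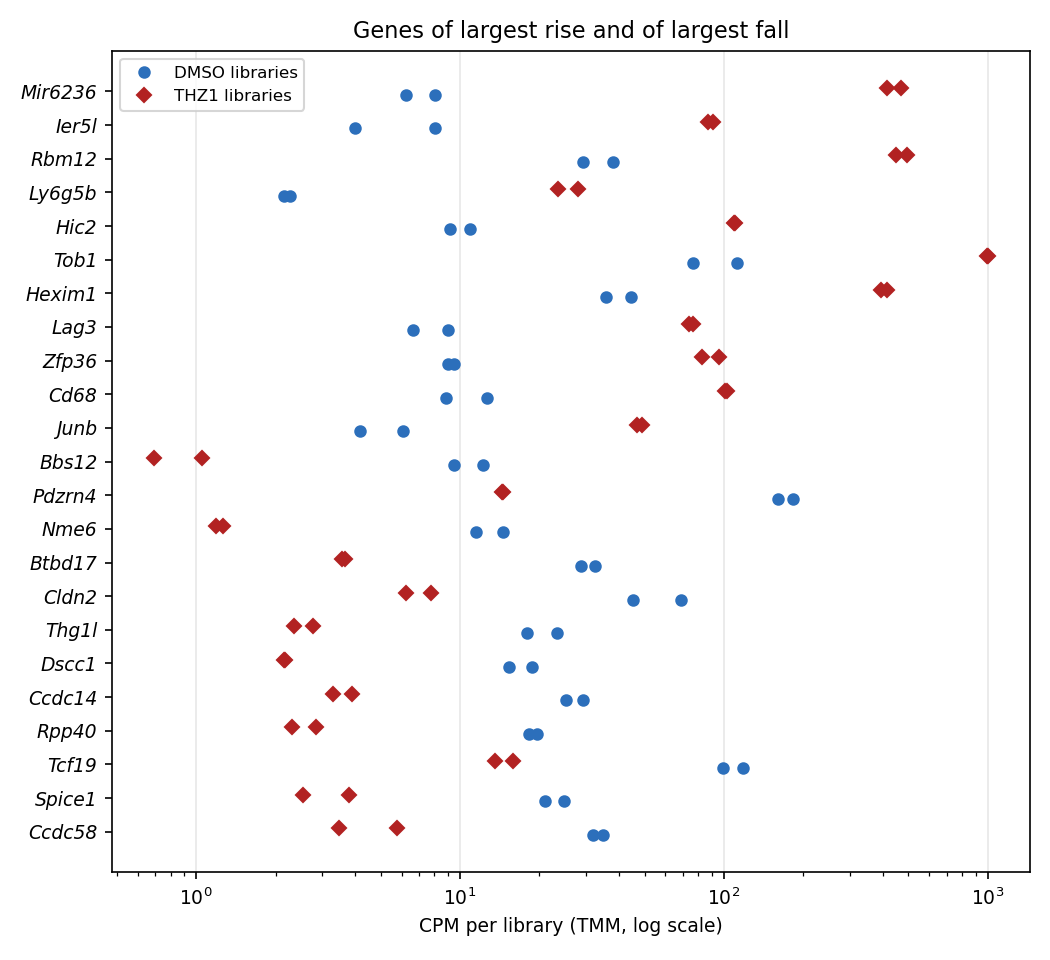
CPM of genes of largest rise, 11 of the 12, and of the 12 of largest fall in each of the 4 libraries, on a log scale, with DMSO libraries as circles and THZ1 libraries as diamonds. For each gene both THZ1 libraries lie on the same side of both DMSO libraries, as the rule of choice required. Tob1 goes from 112 and 76.2 CPM to 994 and 1001 CPM, and Pdzrn4 from 159.6 and 182 CPM to 14.4 and 14.5 CPM.

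Gene models known to take up ribosomal RNA reads rose by more than any of these. Gm26917 took 0.00694% and 0.00389% of the counts with DMSO and 1.48% and 2.37% with THZ1 (log2 fold change 8.88 ± 0.42, edgeR adjusted p 2.6e-08). Lars2, the mitochondrial leucyl-tRNA synthetase, took 0.00312% and 0.00309% with DMSO and 0.242% and 0.244% with THZ1 (log2 fold change 6.70 ± 0.21, edgeR adjusted p 1.6e-09). Which RNA gave the reads of either was not tested.

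The genes of the hedgehog pathway divided. Among receptors, Ptch1, which encodes the receptor that restrains SMO, stood at 237 and 254 CPM with DMSO and 389 and 449.6 CPM with THZ1 (log2 fold change 0.77 ± 0.15, edgeR adjusted p 0.00079, but -0.55 under mitochondrial scaling). Ptch1 is itself a GLI target, and both THZ1 libraries were above both DMSO libraries. It was not called with library size alone (0.36, edgeR adjusted p 0.051) or on log2(FPKM + 1) (0.076, limma adjusted p 0.68). Smo itself stood at 142 and 133 CPM with DMSO and 172 and 197 CPM with THZ1 (log2 fold change 0.42 ± 0.15, edgeR adjusted p 0.022). Its call was lost without THZ1 library 2 (fold 0.32). Smo was not called with library size alone (0.013, edgeR adjusted p 0.94) or with upper quartile scaling (0.26, edgeR adjusted p 0.13). Nor was it called on log2(FPKM + 1) (-0.22, limma adjusted p 0.26). Under mitochondrial scaling Smo was called lower (-0.91, edgeR adjusted p 0.012). Disp2, a relative of the ligand release factor Disp1, fell from 9.59 and 12.4 CPM to 2.32 and 2.22 CPM (log2 fold change -2.28 ± 0.26, edgeR adjusted p 9.4e-06).

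Of the 9 receptor, co-receptor and SMO genes in the table, 2 rose (Ptch1 and Smo), 2 fell, Disp2 among them, and 5 were not called, with a median of 0.087 (-1.24 under mitochondrial scaling, -0.03 without DMSO library 2, 0.17 without THZ1 library 1 and -0.029 without THZ1 library 2). Without THZ1 library 2 the count of higher genes was 1. The co-receptors Boc (-0.03 ± 0.16, edgeR adjusted p 0.88), Cdon (0.12 ± 0.20, edgeR adjusted p 0.64) and Gas1 (0.32 ± 0.15, edgeR adjusted p 0.075) were among those not called. The ligands Shh, Ihh and Dhh, and Hhip, were not in the table.

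All 16 GLI factors and regulators in the table were called, 8 in each direction, against 61.9% of all genes tested. Whichever library was left out, fewer than 16 were called. The median was 0.053 (-1.29 under mitochondrial scaling, -0.037 without DMSO library 1, -0.03 without DMSO library 2 and 0.025 without THZ1 library 1). Sufu, the negative regulator of GLI and the target of the hairpin, stood at 18.5 and 19.0 CPM with DMSO and 83.4 and 77.9 CPM with THZ1 (log2 fold change 2.10 ± 0.15, edgeR adjusted p 4.4e-07). That is 4.29-fold, with no overlap of the groups. Gli1, the activator that is itself a GLI target, stood at 213 and 164 CPM with DMSO and 78.7 and 76.9 CPM with THZ1 (log2 fold change -1.28 ± 0.16, edgeR adjusted p 2.1e-05). Gli2, the main activator of the pathway, stood at 132 and 175 CPM with DMSO and 60.2 and 79.4 CPM with THZ1 (log2 fold change -1.14 ± 0.18, edgeR adjusted p 0.00012). For both factors the highest THZ1 library was below the lowest DMSO library. The kinase gene Stk36 was also called lower (log2 fold change -1.28 ± 0.38, edgeR adjusted p 0.0095), but its DMSO libraries differed (3.76 and 9.43 CPM), and the fold without DMSO library 2 was -0.47 (edgeR adjusted p 0.20). Gli3 was not in the table.

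The remaining regulators also divided by direction. Higher were 6 besides Sufu and the ciliary motor subunit Kif3a (0.47 ± 0.15): the protein kinase A genes Prkaca (0.47 ± 0.16), Prkacb (0.79 ± 0.14) and Prkar1a (0.90 ± 0.15), the GLI kinases Csnk1a1 (0.47 ± 0.15) and Gsk3b (0.54 ± 0.14), and the ubiquitin ligase subunit Fbxw11 (0.80 ± 0.14). Lower were the ciliary kinesin Kif7 (-0.91 ± 0.19), the kinase Ulk3 (-1.12 ± 0.20), Numb (-0.74 ± 0.16), the ubiquitin ligase Itch (-0.59 ± 0.14) and Btrc (-0.36 ± 0.15), the close relative of Fbxw11. Fbxw11 and Btrc, paralogs that both act in GLI processing, were thus called in opposite directions. All 16 are shown here as a whole list, beyond the rule for naming genes.

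Of 19 measured hedgehog target genes 9 rose and 6 fell, with a median of 0.31 (-1.02 under mitochondrial scaling). Mycn, the growth-driving factor of granule progenitors, stood at 266 and 212 CPM with DMSO and 507 and 480.1 CPM with THZ1 (log2 fold change 1.05 ± 0.16, edgeR adjusted p 0.00012, -0.31 under mitochondrial scaling). Ccnd1, the G1 cyclin D1, stood at 222 and 159 CPM with DMSO and 487 and 492 CPM with THZ1 (log2 fold change 1.36 ± 0.18, edgeR adjusted p 3.0e-05, and -0.0016 under mitochondrial scaling). Both were higher in each THZ1 library than in either DMSO library. On log2(FPKM + 1) Mycn was not called (0.38, limma adjusted p 0.14). Ccnd2, the cyclin D2 of these progenitors, stood at 289.9 and 317 CPM with DMSO and 223 and 239.6 CPM with THZ1 (log2 fold change -0.39 ± 0.15, edgeR adjusted p 0.034), and its call was lost without DMSO library 2, THZ1 library 1 or THZ1 library 2 (edgeR adjusted p 0.057 to 0.24).

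Atoh1, the transcription factor that defines granule neuron progenitors, had the largest fold of the targets and stood at 304 and 279.8 CPM with DMSO and 1127 and 1174 CPM with THZ1 (log2 fold change 1.98 ± 0.16, edgeR adjusted p 1.1e-06). The nuclear receptor genes Nr2f1 (0.61 ± 0.15) and Nr2f2 (0.99 ± 0.15), Sox9 (0.71 ± 0.15), Hes1 (1.15 ± 0.22) and Bcl2 (0.51 ± 0.17) were called higher. Foxm1, a mitotic transcription factor (-1.01 ± 0.16), Rab34, a small GTPase of cilium formation (-1.17 ± 0.16), and the guidance factor Ntn1 (-0.41 ± 0.14) were called lower along with Gli1. Sfrp1, Hsd11b2, Igf2 and Bmi1 were not called.

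**Figure D3:**
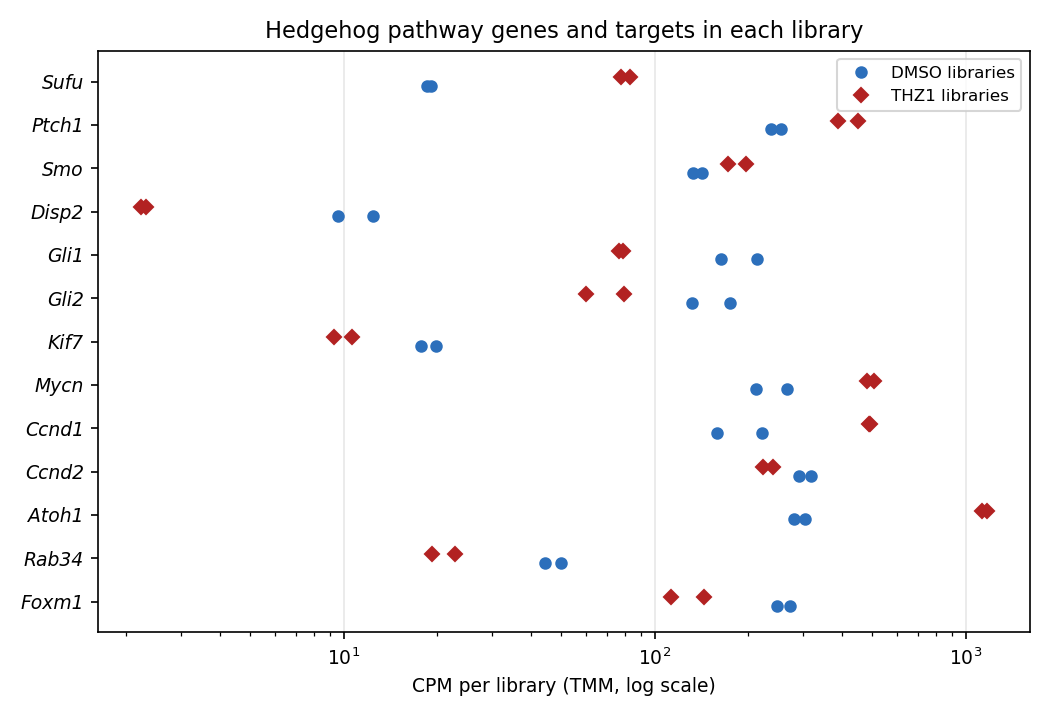
CPM of hedgehog pathway genes and targets in each of the 4 libraries, on a log scale, with DMSO libraries as circles and THZ1 libraries as diamonds. Sufu, Ptch1, Smo, Mycn, Ccnd1 and Atoh1 lie to the right with THZ1, and Disp2, Gli1, Gli2, Kif7, Ccnd2, Rab34 and Foxm1 to the left, on the TMM scale; Ptch1, Smo, Mycn and Ccnd1 have folds below 0 under mitochondrial scaling.

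The gene of the kinase that THZ1 targets was not called under TMM: Cdk7 stood at 53.1 and 47.9 CPM with DMSO and 47.6 and 52.6 CPM with THZ1 (log2 fold change -0.012 ± 0.15, edgeR adjusted p 0.95). Cdk7 was called lower with library size alone (-0.42, edgeR adjusted p 0.022) and under mitochondrial scaling (-1.35, edgeR adjusted p 0.0001). It was also called lower on log2(FPKM + 1) (-0.55, limma adjusted p 0.014). In these settings the median gene itself stood lower, at -0.45, -1.37 and -0.58. The other targets gave 0.31 ± 0.15 for Cdk12 (edgeR adjusted p 0.092) and 0.65 ± 0.14 for Cdk13 (edgeR adjusted p 0.0014), the second called higher, with -0.69 under mitochondrial scaling. Among the 10 TFIIH genes 4 fell and 1 rose (0 higher without THZ1 library 1 or THZ1 library 2 and 2 lower without THZ1 library 2), with a median of -0.27 (-0.028 without DMSO library 1 and -0.42 without DMSO library 2). The core subunit gene Gtf2h2 went from 41.5 and 39.7 CPM to 14.8 and 12.5 CPM (log2 fold change -1.57 ± 0.16, edgeR adjusted p 5.2e-06), and Gtf2h3 (-0.77 ± 0.15), the cyclin H gene Ccnh (-0.58 ± 0.16) and Gtf2h1 (-0.39 ± 0.15) fell less. Ccnh lost its call without THZ1 library 2 (-0.44, edgeR adjusted p 0.13). The helicase gene Ercc3 rose (0.41 ± 0.14, edgeR adjusted p 0.021) and lost its call without either THZ1 library (edgeR adjusted p 0.057 to 0.19).

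Of 28 elongation CDKs and regulators 15 rose and 4 fell (2 lower without DMSO library 1 or THZ1 library 1 or THZ1 library 2), with a median of 0.41 (-0.92 under mitochondrial scaling). The shares are 53.6% and 14.3%, against 29.5% and 32.3% of all genes. Hexim1, already described, had the largest rise. Supt5, the SPT5 subunit of the pausing factor DSIF, stood at 202 and 193 CPM with DMSO and 495 and 482 CPM with THZ1 (log2 fold change 1.31 ± 0.15, edgeR adjusted p 1.2e-05), and the P-TEFb cyclin gene Ccnt2 at 148 and 187 CPM with DMSO and 383 and 384 CPM with THZ1 (log2 fold change 1.19 ± 0.16, edgeR adjusted p 3.9e-05). Nelfe, a subunit of the pausing complex NELF, moved the other way, from 145 and 109 CPM to 27.7 and 24.1 CPM (log2 fold change -2.29 ± 0.17, edgeR adjusted p 5.5e-07). The 4 NELF genes were unlike each other: Nelfa fell as well (-0.44 ± 0.15), Nelfb rose (1.04 ± 0.14) and Nelfcd was not called (0.29 ± 0.19). The P-TEFb genes Cdk9 (0.87 ± 0.14) and Ccnt1 (0.88 ± 0.16) were called higher. Larp7, a 7SK-binding protein (-0.99 ± 0.16), and Paf1 (-0.38 ± 0.14) were called lower.

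Of 12 RNA polymerase II subunits 2 rose and 5 fell (1 higher without THZ1 library 1 and 3 lower without THZ1 library 2), with a median of -0.11 (-0.20 without DMSO library 2, -0.23 without THZ1 library 1 and -0.00017 without THZ1 library 2). Polr2a, the catalytic subunit whose tail CDK7 phosphorylates, stood at 479 and 424 CPM with DMSO and 1392 and 1485 CPM with THZ1 (log2 fold change 1.67 ± 0.17, edgeR adjusted p 4.2e-06). Small subunits went the other way, with Polr2i at -1.21 ± 0.16, Polr2j at -1.07 ± 0.15 and Polr2e at -0.88 ± 0.15. Of 32 Mediator subunits 9 rose and 15 fell (8 lower without THZ1 library 2), median -0.32. Med8 went from 70.5 and 64.3 CPM to 15.8 and 16.4 CPM (log2 fold change -2.07 ± 0.15, edgeR adjusted p 5.5e-07), and Med9 (-1.71 ± 0.20) and Med11 (-1.68 ± 0.19) fell too. Med12l, a paralog of the kinase module gene Med12, rose from 18.7 and 26.2 CPM to 68.5 and 83.2 CPM (log2 fold change 1.75 ± 0.18, edgeR adjusted p 5.4e-06). Among 33 cleavage, polyadenylation and termination factors 9 rose and 13 fell, median -0.17 (-0.011 without DMSO library 1 and -0.11 without THZ1 library 1). Here 27.3% were higher, near the 29.5% of all genes tested, and 39.4% lower, against 32.3%. The Integrator subunit gene Ints3 went from 99.9 and 86.3 CPM to 16.5 and 20.2 CPM (log2 fold change -2.34 ± 0.16, edgeR adjusted p 4.2e-07), the polyadenylation factor Cpsf2 fell (-2.02 ± 0.16) and so did Ints6 (-1.52 ± 0.18). Pabpn1, the nuclear poly(A)-binding protein, rose (1.59 ± 0.15).

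DNA replication was the list with the lowest median, -0.82. Of its 52 measured genes 37 fell (71.2%, against 32.3% of all genes) and 1 rose. Orc5, a subunit of the origin recognition complex, went from 45.1 and 37.6 CPM to 7.65 and 7.44 CPM (log2 fold change -2.45 ± 0.18, edgeR adjusted p 4.4e-07). Mcm10, which helps to load the replicative polymerase, stood at 82.5 and 83.3 CPM with DMSO and 16.4 and 18.8 CPM with THZ1 (log2 fold change -2.24 ± 0.15, edgeR adjusted p 3.8e-07). The fork protection gene Tipin (-2.24 ± 0.18) and the clamp loader subunit Rfc4 (-2.05 ± 0.18) followed. In each of these the lowest DMSO library was above the highest THZ1 library. The other called genes include the cyclins E, Ccne1 (-1.58 ± 0.16) and Ccne2 (-2.03 ± 0.16), Cdc45 (-1.37 ± 0.15) and Pcna (-1.04 ± 0.16). Helicase genes were mixed: Mcm6 (-1.46 ± 0.15) and Mcm5 (-0.44 ± 0.15) fell, while Mcm2 (-0.17 ± 0.15), Mcm3 (0.30 ± 0.16), Mcm4 (0.13 ± 0.14) and Mcm7 (0.36 ± 0.15) were not called. Lig1, the replicative DNA ligase, was the gene that rose (0.45 ± 0.14, edgeR adjusted p 0.014). It lost the call without either THZ1 library (edgeR adjusted p 0.075 to 0.093), and the count of higher genes was 5 without DMSO library 1.

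Of 57 mitosis and kinetochore genes 41 fell and 4 rose (71.9% and 7.02%), with a median of -0.68. Ska1, which couples kinetochores to microtubules, went from 67.2 and 55.3 CPM to 10.0 and 9.85 CPM (log2 fold change -2.62 ± 0.17, edgeR adjusted p 2.5e-07). Knstrn, a kinetochore and spindle protein, stood at 121 and 125 CPM with DMSO and 32.2 and 32.5 CPM with THZ1 (log2 fold change -1.93 ± 0.14, edgeR adjusted p 5.1e-07). The kinetochore gene Spc25 (-1.90 ± 0.19), the CDK-activating phosphatase gene Cdc25b (-1.80 ± 0.16) and topoisomerase Top2a (-1.69 ± 0.17) fell as well. The 4 that rose were Knl1, a kinetochore scaffold (0.77 ± 0.17, edgeR adjusted p 0.0016), Ccnb2 (0.49 ± 0.15), Mki67 (0.45 ± 0.17) and Spag5 (0.41 ± 0.15), and the count of higher genes was 2 without either THZ1 library. The cyclin B genes were called in opposite directions, with Ccnb1 at -1.20 ± 0.16. Aurka (-0.029 ± 0.17, edgeR adjusted p 0.89) and Cdc20 (-0.02 ± 0.22, edgeR adjusted p 0.94) were not called.

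Of the 8 D cyclins, CDK4/6 and pocket proteins 4 fell and 2 rose (2 lower without THZ1 library 2), median -0.24 (-1.57 under mitochondrial scaling). The pocket protein gene Rbl1, which encodes p107, stood at 350.0 and 358 CPM with DMSO and 169.5 and 172 CPM with THZ1 (log2 fold change -1.05 ± 0.15, edgeR adjusted p 4.8e-05), Ccnd3 fell (-0.66 ± 0.17) and Cdk4 fell (-0.65 ± 0.16). Cdk6 was called higher (0.75 ± 0.17, edgeR adjusted p 0.0022), in the direction of Ccnd1. Rb1 was not called (-0.096 ± 0.15, edgeR adjusted p 0.59). Of 10 E2F family genes 4 fell and 2 rose, median -0.14 (-1.46 under mitochondrial scaling). E2f1, an activator of replication genes, stood at 1299.7 and 1335 CPM with DMSO and 571 and 620.1 CPM with THZ1 (log2 fold change -1.15 ± 0.16, edgeR adjusted p 6.3e-05), and the repressor E2f8 at 92.6 and 99.4 CPM with DMSO and 40.0 and 43.6 CPM with THZ1 (log2 fold change -1.20 ± 0.14, edgeR adjusted p 1.4e-05). The repressor E2f6 (1.12 ± 0.14) and the partner Tfdp2 (1.15 ± 0.18) rose.

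Of 6 CDK inhibitor genes 3 rose and 1 fell. Cdkn1a, which encodes p21, stood at 116 and 77.0 CPM with DMSO and 204 and 190.4 CPM with THZ1 (log2 fold change 1.03 ± 0.18, edgeR adjusted p 0.0003). The INK4 genes Cdkn2d (1.06 ± 0.17) and Cdkn2a (0.83 ± 0.18) rose, and Cdkn2c fell (-0.59 ± 0.16, edgeR adjusted p 0.0057; without THZ1 library 2, -0.55 and 0.058). Of the list's median of 0.54, the value under mitochondrial scaling was -0.81.

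Of 42 DNA damage response and repair genes 27 fell and 5 rose (3 higher without THZ1 library 1 or THZ1 library 2), with a median of -0.78. Rad51c, of homologous recombination, went from 19.6 and 23.9 CPM to 4.14 and 4.49 CPM (log2 fold change -2.33 ± 0.21, edgeR adjusted p 1.7e-06). Nbn (-2.10 ± 0.18) and Rad50 (-2.05 ± 0.16), members of the MRN complex that senses double-strand breaks, fell, while the remaining member Mre11a was called higher (0.39 ± 0.14, edgeR adjusted p 0.027). Brca2 (-1.86 ± 0.16) and Fancd2 (-1.36 ± 0.15) fell, and Brca1 (-0.13 ± 0.16, edgeR adjusted p 0.5) and Chek1 (0.042 ± 0.15, edgeR adjusted p 0.83) were not called. Fancc, of the Fanconi core complex, was the largest of those that rose (0.98 ± 0.20, edgeR adjusted p 0.00077).

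The TTT complex folds the PI3K-related kinases. Its subunit gene Tti1 stood at 177 and 191 CPM with DMSO and 26.0 and 26.8 CPM with THZ1 (log2 fold change -2.80 ± 0.15, edgeR adjusted p 6.2e-08). Of the 12 genes of that list 7 fell and 2 rose (1 higher without THZ1 library 2 and 4 lower without THZ1 library 2), with a median of -0.53. The cofactor Pih1d1 (-1.52 ± 0.19), the partners Telo2 (-0.89 ± 0.16) and Tti2 (-0.49 ± 0.16) and the kinases Atm (-1.10 ± 0.17), Atr (-0.63 ± 0.16) and Prkdc (-0.56 ± 0.18) fell. The nonsense-mediated decay kinase Smg1 rose (1.33 ± 0.16), as did Trrap (0.59 ± 0.16), and Mtor was not called (0.025 ± 0.15).

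Of 27 p53 pathway genes 11 rose and 7 fell (4 lower without THZ1 library 1), with a median of -0.17 (-0.091 without DMSO library 1, -0.097 without DMSO library 2 and -0.039 without THZ1 library 2). Gadd45b, a stress-induced growth arrest gene, went from 3.65 and 1.55 CPM to 23.5 and 23.0 CPM (log2 fold change 3.16 ± 0.31, edgeR adjusted p 3.1e-06). Ddit4, an inhibitor of mTORC1, stood at 56.1 and 51.4 CPM with DMSO and 214 and 206 CPM with THZ1 (log2 fold change 1.96 ± 0.14, edgeR adjusted p 5.3e-07). Sertad1 (2.22 ± 0.22) and the BH3-only gene Bbc3 (1.53 ± 0.25) rose from low levels, whereas Rrm2b, a p53-induced ribonucleotide reductase subunit, fell (-1.43 ± 0.23). Trp53 (-0.17 ± 0.16, edgeR adjusted p 0.37) and Mdm2 (-0.19 ± 0.15, edgeR adjusted p 0.27) were not called.

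Among 18 BCL2 family genes 9 rose and 5 fell, with a median of 0.31 (-1.04 under mitochondrial scaling, 0.46 without DMSO library 1). Mcl1, the short-lived survival factor, stood at 94.6 and 74.0 CPM with DMSO and 141 and 136 CPM with THZ1 (log2 fold change 0.72 ± 0.15, edgeR adjusted p 0.0012, -0.64 under mitochondrial scaling). Its groups did not overlap. The survival genes Bcl2 and Bcl2l1 (0.54 ± 0.16) also rose. Bid, which links death receptors to mitochondria, went from 15.8 and 13.8 CPM to 2.46 and 3.14 CPM (log2 fold change -2.40 ± 0.24, edgeR adjusted p 3.5e-06), and Bad (-1.31 ± 0.22) and Bcl2l12 (-1.56 ± 0.23) fell.

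In the MYC network 6 of 13 genes rose and 3 fell, with a median of 0.53 (-0.78 under mitochondrial scaling). Myc stood at 106 and 95.6 CPM with DMSO and 287 and 316 CPM with THZ1 (log2 fold change 1.58 ± 0.15, edgeR adjusted p 2.7e-06). Under mitochondrial scaling Myc was not called (0.24, edgeR adjusted p 0.53). The MAX partners that oppose MYC rose too, Mxd1 from 14.3 and 12.4 CPM to 43.3 and 47.0 CPM (log2 fold change 1.76 ± 0.16, edgeR adjusted p 2.2e-06) and Mnt from 43.4 and 47.9 CPM to 115 and 119.8 CPM (log2 fold change 1.36 ± 0.14, edgeR adjusted p 4.8e-06). Mlxip rose (1.33 ± 0.16), its partner Mlx fell (-1.16 ± 0.15) and Max was not called (-0.19 ± 0.14, edgeR adjusted p 0.26).

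Of 17 AP-1 and immediate early genes 13 rose (76.5%, against 29.5% of all genes) and 1 fell, with a median of 1.45, which stayed at 0.092 under mitochondrial scaling. Fos went from 2.40 and 2.93 CPM to 17.2 and 18.9 CPM (log2 fold change 2.76 ± 0.22, edgeR adjusted p 9.1e-07), and Ier2 from 4.52 and 3.83 CPM to 26.7 and 25.3 CPM (log2 fold change 2.64 ± 0.20, edgeR adjusted p 5.5e-07). Levels of both with DMSO were low. Jun (2.03 ± 0.20), Fosl2 (1.70 ± 0.17), the serum response factor gene Srf (1.65 ± 0.15) and Egr1 (1.58 ± 0.21) rose. Nr4a1 was the gene that fell (-0.60 ± 0.19, edgeR adjusted p 0.014), and its call was lost without either THZ1 library (edgeR adjusted p 0.094 to 0.14). Atf3 (0.56 ± 0.24), Dusp1 (-0.12 ± 0.16) and Maff (0.60 ± 0.27) were not called.

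Of 10 Kruppel-like factor genes 7 rose and 0 fell, with a median of 0.62 (-0.73 under mitochondrial scaling). With edgeR the members lower at an unadjusted p under 0.05 numbered 1, with DESeq2 0 were called lower, and without DMSO library 1 the lower count was 1. Klf13 stood at 94.0 and 68.3 CPM with DMSO and 452 and 488 CPM with THZ1 (log2 fold change 2.53 ± 0.18, edgeR adjusted p 4.4e-07) and Klf6, an early response factor, at 26.3 and 17.2 CPM with DMSO and 112 and 109 CPM with THZ1 (log2 fold change 2.34 ± 0.19, edgeR adjusted p 8.9e-07). Klf7 (1.43 ± 0.21) and Klf12 (1.48 ± 0.29) rose with a wider spread between libraries.

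Of the mRNA decay factors 10 of 29 were higher and 8 lower, 34.5% and 27.6%, near the shares over all genes tested (29.5% and 32.3%), with a median of 0.014 (-1.32 under mitochondrial scaling, 0.12 without DMSO library 1, -0.036 without DMSO library 2, 0.13 without THZ1 library 1 and -0.0026 without THZ1 library 2). Those that rose most were Tob1, Zfp36 and its AU-rich element-binding relative Zfp36l2, which stood at 46.5 and 41.5 CPM with DMSO and 258 and 277 CPM with THZ1 (log2 fold change 2.60 ± 0.15, edgeR adjusted p 1.3e-07). The decapping activator gene Dcp1b fell (-2.14 ± 0.18) and its paralog Dcp1a rose (0.55 ± 0.14). The deadenylase scaffold Cnot1 fell (-0.97 ± 0.15).

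Of 21 granule neuron progenitor factors 10 rose and 2 fell (1 lower without DMSO library 2 or THZ1 library 1 or THZ1 library 2), with a median of 0.44 (-0.88 under mitochondrial scaling). Besides Atoh1, the chemokine receptor Cxcr4 that keeps progenitors in the outer layer stood at 349 and 274 CPM with DMSO and 1156 and 1179 CPM with THZ1 (log2 fold change 1.91 ± 0.18, edgeR adjusted p 2.3e-06). Zic1, a zinc finger factor of the lineage, stood at 601 and 542 CPM with DMSO and 1693 and 1639 CPM with THZ1 (log2 fold change 1.54 ± 0.17, edgeR adjusted p 7.9e-06), and Mab21l1 at 51.1 and 52.7 CPM with DMSO and 152 and 144 CPM with THZ1 (log2 fold change 1.51 ± 0.14, edgeR adjusted p 2.0e-06). In each the groups were far apart. Meis1 (-0.72 ± 0.14) and Etv1 (-0.45 ± 0.17) fell. Barhl1 was not called (0.33 ± 0.15, edgeR adjusted p 0.071).

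Of 20 neuronal differentiation genes 9 fell and 5 rose, with a median of -0.28 (-0.50 without DMSO library 1 and -0.12 without DMSO library 2). The RNA-binding protein gene Elavl4 (-1.76 ± 0.27), Neurod6 (-1.36 ± 0.22) and the synaptic gene Snap25 (-1.11 ± 0.19) fell, and the adhesion gene Ncam1 rose (1.19 ± 0.17). Elavl4 fell while its paralog Elavl3 was called higher (0.56 ± 0.17). The summed level of the list was 1414 and 1672 CPM with DMSO and 1553 and 1787 CPM with THZ1, ranges that overlap.

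Of 7 SOX genes 5 rose and 0 fell, median 0.71 (-0.64 under mitochondrial scaling). With edgeR the members lower at an unadjusted p under 0.05 numbered 0, with DESeq2 0 were called lower, and without DMSO library 2 the lower count was 1. The neuronal precursor genes Sox4 and Sox11 stood at 37.1 and 34.9 CPM with DMSO and 105 and 121 CPM with THZ1 (log2 fold change 1.65 ± 0.15, edgeR adjusted p 1.6e-06) and at 265 and 241 CPM with DMSO and 587 and 628 CPM with THZ1 (log2 fold change 1.26 ± 0.16, edgeR adjusted p 2.0e-05). Of 16 Notch pathway and ID genes 7 rose and 2 fell (1 lower without THZ1 library 1), median 0.49 (-0.88 under mitochondrial scaling). The coactivators Maml1 (1.62 ± 0.14) and Maml3 (1.37 ± 0.18) and the DNA-binding partner Rbpj (1.14 ± 0.15) rose, and the ligand genes Dll3 (-0.99 ± 0.14) and Jag2 (-0.74 ± 0.19) fell.

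Of 14 MAP kinase feedback regulators 5 fell and 2 rose (5 higher without DMSO library 2 and 1 higher without THZ1 library 1 or THZ1 library 2), median -0.058 (-1.31 under mitochondrial scaling, -0.25 without DMSO library 1 and 0.12 without DMSO library 2). The ERK phosphatase gene Dusp6 stood at 33.5 and 49.7 CPM with DMSO and 18.0 and 19.2 CPM with THZ1 (log2 fold change -1.16 ± 0.19, edgeR adjusted p 0.00018), and Etv5 (-1.23 ± 0.17) and Spred2 (-1.13 ± 0.16) fell. Dusp16 rose (1.02 ± 0.14). Of 20 receptor tyrosine kinase and growth factor genes 8 rose and 3 fell (1 lower without THZ1 library 1), median 0.32 (-1.01 under mitochondrial scaling). The insulin receptor substrates Irs1 (1.83 ± 0.22) and Irs2 (1.61 ± 0.20) rose together, with Igf1r at 1.24 ± 0.20. Erbb2 fell (-1.37 ± 0.22).

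Of 21 heat shock and chaperone genes 6 rose and 8 fell (5 lower without THZ1 library 1 and 3 lower without THZ1 library 2), median -0.064 (-1.38 under mitochondrial scaling, 0.041 without DMSO library 2, -0.26 without THZ1 library 1 and 0.0075 without THZ1 library 2). The share higher was 28.6%, near the 29.5% of all genes tested, and the share lower 38.1%, against 32.3%. Inducible Hspa1b went from 4.41 and 5.47 CPM to 24.2 and 22.5 CPM (log2 fold change 2.24 ± 0.20, edgeR adjusted p 1.7e-06), though its near-identical copy Hspa1a makes the count uncertain, and Hspb1 (1.74 ± 0.21) and Bag3 (1.20 ± 0.23) rose. Hspa8, the constitutive HSC70 gene, stood at 3301 and 2089 CPM with DMSO and 1248 and 1079 CPM with THZ1 (log2 fold change -1.21 ± 0.22, edgeR adjusted p 0.0004). The unfolded protein and integrated stress response genes divided 14 higher to 12 lower of 30, median -0.033 (-1.33 under mitochondrial scaling, 0.18 without DMSO library 2, 0.077 without THZ1 library 1 and 0.031 without THZ1 library 2). Ppp1r15a, which restores translation after stress, stood at 35.0 and 27.0 CPM with DMSO and 140.4 and 148 CPM with THZ1 (log2 fold change 2.21 ± 0.16, edgeR adjusted p 4.9e-07). The sensor Ern1 (2.01 ± 0.16) rose and Xbp1, whose mRNA ERN1 splices, went from 26.6 and 24.9 CPM to 6.32 and 4.98 CPM (log2 fold change -2.18 ± 0.20, edgeR adjusted p 1.8e-06). Atf4 rose (0.51 ± 0.18) while Ddit3, a target of ATF4, fell (-1.01 ± 0.16).

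Of 25 glycolysis and hypoxia genes 10 rose and 3 fell (16 higher without DMSO library 1), median 0.32 (-1.02 under mitochondrial scaling). Vegfa stood at 135 and 147 CPM with DMSO and 289 and 304 CPM with THZ1 (log2 fold change 1.08 ± 0.15, edgeR adjusted p 4.2e-05), the glycolytic gene Pgam1 rose (1.09 ± 0.14), and the neuronal glucose transporter gene Slc2a3 fell (-2.03 ± 0.23). Ankrd37 was near 1 CPM with DMSO (1.28 ± 0.37, edgeR adjusted p 0.0088) and lost its call without THZ1 library 1 (1.04, edgeR adjusted p 0.13).

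In the sterol and fatty acid synthesis list the DMSO libraries stood apart from each other. The summed level of its 28 genes was 8249 CPM in DMSO library 1 and 4032 CPM in DMSO library 2, against 9794 and 10604 CPM with THZ1, and the median gene was 1.17 higher in DMSO library 1 on the log2 scale. The count of 11 higher and 6 lower genes (median 0.44, -0.96 under mitochondrial scaling) was 22 and 4 without DMSO library 1 and 10 and 12 without DMSO library 2. Its median was 1.06 in the former case and 0.071 in the latter. Genes whose groups were apart in either case included Ebp, a sterol isomerase, at 40.4 and 34.6 CPM with DMSO and 8.95 and 6.86 CPM with THZ1 (log2 fold change -2.25 ± 0.19, edgeR adjusted p 1.1e-06), and Scd2, a stearoyl-CoA desaturase, at 1376 and 886 CPM with DMSO and 2916 and 3327 CPM with THZ1 (log2 fold change 1.46 ± 0.22, edgeR adjusted p 9.1e-05). The groups of Nsdhl and Hsd17b7 were apart as well, but with the DMSO libraries themselves wide apart. Nsdhl fell from 127 and 44.8 CPM to 17.5 and 19.6 CPM (log2 fold change -2.22 ± 0.34, edgeR adjusted p 0.00011). Hsd17b7 rose from 68.5 and 30.4 CPM to 165 and 173 CPM (log2 fold change 1.77 ± 0.27, edgeR adjusted p 9.7e-05).

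All 13 mitochondrially encoded protein genes rose, with a median of 1.32, by construction near 0 under mitochondrial scaling (0.038). The cytochrome oxidase gene mt-Co2 went from 28.2 and 31.0 CPM to 86.4 and 79.9 CPM (log2 fold change 1.49 ± 0.15, edgeR adjusted p 3.5e-06), and mt-Nd4, of complex I, from 3537 and 4599.7 CPM to 11581 and 10989 CPM (log2 fold change 1.47 ± 0.22, edgeR adjusted p 7.2e-05). DMSO library 2 was above DMSO library 1 by a median of 0.34 on the log2 scale in these genes. The nuclear OXPHOS genes, 86 by name and assembly factors included, gave other counts: 26 rose and 17 fell (14 higher without THZ1 library 1 and 8 lower without THZ1 library 2), median 0.14 (-1.20 under mitochondrial scaling, 0.21 without DMSO library 1, 0.079 without DMSO library 2, 0.0082 without THZ1 library 1 and 0.25 without THZ1 library 2). The share higher was 30.2%, near the 29.5% of all genes tested, and the share lower 19.8%, against 32.3%. Cox6a1 rose (1.46 ± 0.15), and Ndufv2 (-1.31 ± 0.16) and the assembly factor Ndufaf7 (-1.77 ± 0.24) fell.

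Of 77 mitochondrial ribosomal protein genes 46 fell and 5 rose (59.7% and 6.49%; 3 higher without DMSO library 2 or THZ1 library 2 and 2 higher without THZ1 library 1), with a median of -0.72. Mrps10 stood at 80.1 and 69.5 CPM with DMSO and 16.4 and 15.6 CPM with THZ1 (log2 fold change -2.22 ± 0.16, edgeR adjusted p 4.3e-07), with Mrpl55 at -2.33 ± 0.21 and Mrpl14 at -2.03 ± 0.20. Mrps26 was among those that rose (1.10 ± 0.17). The 73 genes named Rpl or Rps, of which Rps19bp1 is no ribosomal protein, gave 22 higher and 5 lower (7 higher without THZ1 library 1, 8 lower without DMSO library 2 and 2 lower without THZ1 library 2), median 0.15 (-1.18 under mitochondrial scaling, 0.016 without THZ1 library 1 and 0.30 without THZ1 library 2). Here 30.1% were higher, near the 29.5% of all genes tested, and 6.85% lower, against 32.3%. Rplp0 (1.05 ± 0.17) and Rps29 (1.15 ± 0.16) rose and Rps6 fell (-1.18 ± 0.17), and near-identical pseudogene copies make their counts uncertain. Rpl24, near 1 CPM, lost its call without DMSO library 2 or THZ1 library 2 (edgeR adjusted p 0.13 to 0.41). Of 32 aminoacyl-tRNA synthetase genes 17 fell and 5 rose, median -0.44. The mitochondrial enzyme gene Rars2 fell (-2.11 ± 0.17) and Mars2 rose (2.09 ± 0.16).

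Of 31 proteasome genes 9 fell and 4 rose (14 lower without DMSO library 2), median -0.17 (-0.059 without DMSO library 1, -0.37 without THZ1 library 1 and 0.014 without THZ1 library 2). Psma4 fell (-1.42 ± 0.17) and Psmd11 rose (1.15 ± 0.16). In the core spliceosome 30.3% were higher and 27.3% lower, near the shares over all genes tested (29.5% and 32.3%). The core spliceosome had 10 higher and 9 lower of 33 (6 higher without THZ1 library 1 or THZ1 library 2) and a median of 0.0072 (-1.33 under mitochondrial scaling, 0.06 without DMSO library 1, -0.049 without DMSO library 2, -0.019 without THZ1 library 1 and 0.10 without THZ1 library 2), with Prpf31, of the U4/U6 particle, at 138 and 135 CPM with DMSO and 33.6 and 31.2 CPM with THZ1 (log2 fold change -2.07 ± 0.14, edgeR adjusted p 3.8e-07). Among 21 SR proteins and CLK kinases 7 rose and 2 fell (1 lower without THZ1 library 2), median 0.24 (-1.07 under mitochondrial scaling, 0.15 without THZ1 library 1). Srrm2, a scaffold of nuclear speckles, rose (1.57 ± 0.22), and Srsf3 fell (-1.28 ± 0.15). The kinase genes Clk1 (-0.17 ± 0.15), Clk2 (-0.094 ± 0.14), Clk3 (0.12 ± 0.14) and Clk4 (0.33 ± 0.14) were not called.

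Of 49 chromatin regulators 22 rose and 8 fell (5 lower without THZ1 library 1), median 0.29 (0.16 without THZ1 library 2, below 0 under mitochondrial scaling). The enhancer methyltransferase gene Kmt2c stood at 167 and 177 CPM with DMSO and 691 and 880.2 CPM with THZ1 (log2 fold change 2.19 ± 0.17, edgeR adjusted p 8.1e-07), and Dot1l, which methylates histone H3 in transcribed genes, at 239 and 279 CPM with DMSO and 668 and 725 CPM with THZ1 (log2 fold change 1.43 ± 0.16, edgeR adjusted p 1.0e-05). Kmt2a (1.14 ± 0.20), Kmt2b (1.19 ± 0.15) and Kmt2d (0.84 ± 0.20) were called higher as well. Smarcb1, the BAF subunit lost in rhabdoid tumours, fell (log2 fold change -1.72 ± 0.15, edgeR adjusted p 1.3e-06), and the histone acetyltransferase gene Kat8 fell (-1.60 ± 0.21). The Polycomb genes Ezh2 (-1.29 ± 0.15) and Suz12 (-0.74 ± 0.14) fell and Eed was not called (0.32 ± 0.14).

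Of 15 histone genes with polyadenylated mRNA 8 rose and 2 fell, median 0.83 (-0.53 under mitochondrial scaling). The linker histone gene H1f0 stood at 428 and 440.0 CPM with DMSO and 977 and 935 CPM with THZ1 (log2 fold change 1.14 ± 0.16, edgeR adjusted p 5.1e-05), Hist1h1c went from 3.27 and 3.32 CPM to 16.3 and 13.6 CPM (log2 fold change 2.18 ± 0.22, edgeR adjusted p 4.4e-06) and Hist2h2be rose (1.74 ± 0.17). H2afx, the variant marked at DNA breaks, fell (-0.96 ± 0.21, edgeR adjusted p 0.0012).

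Of 53 primary cilium genes 33 fell and 4 rose (62.3% and 7.55%; 2 higher without DMSO library 1 or THZ1 library 1 or THZ1 library 2), with a median of -0.71. Arl13b, a ciliary GTPase needed for hedgehog signalling, stood at 33.9 and 34.3 CPM with DMSO and 10.9 and 9.85 CPM with THZ1 (log2 fold change -1.71 ± 0.17, edgeR adjusted p 3.1e-06). The transition zone gene Rpgrip1l fell (-1.78 ± 0.25), and the kinesin subunits Kif3a and Kif3b (0.75 ± 0.16) rose. DMSO library 2 was higher than DMSO library 1 by a median of 0.33 on the log2 scale in this list.

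Of 18 clock genes 12 rose and 0 fell (66.7% higher; 1 lower without DMSO library 1 or 2), median 0.65 (-0.64 under mitochondrial scaling). With edgeR 0 were lower at an unadjusted p under 0.05, and with DESeq2 0 were called lower. The clock repressor gene Cry2 stood at 18.2 and 21.6 CPM with DMSO and 80.1 and 80.3 CPM with THZ1 (log2 fold change 2.01 ± 0.16, edgeR adjusted p 6.9e-07), and the activator Rora went from 6.35 and 11.2 CPM to 34.4 and 41.6 CPM (log2 fold change 2.11 ± 0.24, edgeR adjusted p 9.1e-06). Nfil3 (1.64 ± 0.22), Bhlhe40 (1.63 ± 0.17) and Per2 (0.96 ± 0.22) rose too.

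Of 18 tested snoRNA hosts and nuclear noncoding RNAs 8 rose and 4 fell (5 higher without THZ1 library 1 or THZ1 library 2 and 2 lower without THZ1 library 2), median 0.27 (-1.10 under mitochondrial scaling, 0.53 without DMSO library 1 and -0.0059 without DMSO library 2). Snhg4 (-1.79 ± 0.18) and Snhg5 (-1.76 ± 0.22) fell, and Snhg14 (1.47 ± 0.16) and Snhg20 (1.19 ± 0.16) rose. Of 311 tested genes named Zfp 135 fell and 69 rose (43.4% and 22.2%), median -0.24. Zfp239 stood at 42.2 and 42.7 CPM with DMSO and 6.14 and 6.71 CPM with THZ1 (log2 fold change -2.73 ± 0.17, edgeR adjusted p 2.0e-07) and Zfp280b at 75.3 and 87.6 CPM with DMSO and 476 and 509 CPM with THZ1 (log2 fold change 2.60 ± 0.16, edgeR adjusted p 1.9e-07). Zfp36 and its relatives carry the name but bind mRNA.

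**Figure D4:**
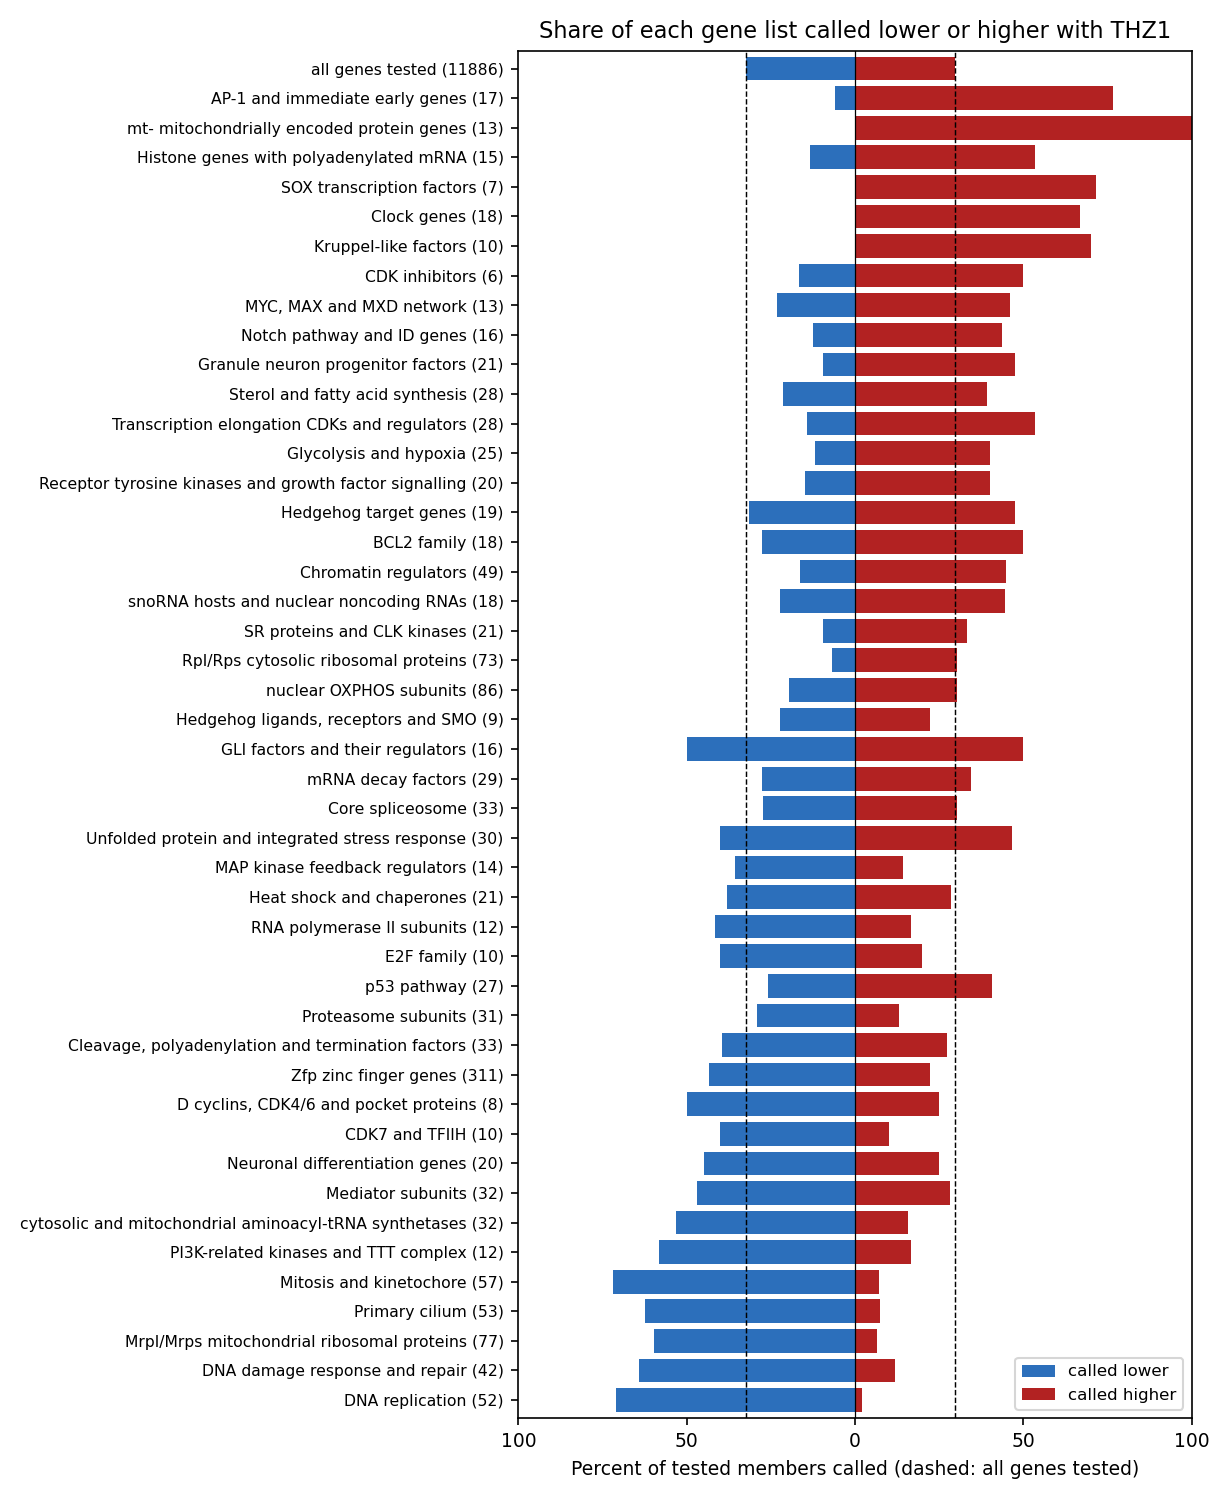
Percent of the tested members of each of 45 gene lists called lower (blue, to the left) and called higher (red, to the right) with THZ1, with the number tested in brackets and the lists in order of their median fold. Dashed lines mark the shares over all 11886 genes tested, 32.3% lower and 29.5% higher; calls are on the TMM scale, and under mitochondrial scaling the medians of all lists but the AP-1 and mitochondrially encoded ones are below 0.

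Across genes, which are not independent replicates, the fold went with level and with length. With genes in 5 equal bins of mean CPM, in the top bin 51.5% were called higher and 14.8% lower, with a median fold of 0.40. In the bottom bin 15.2% were higher and 34.6% lower, with a median of -0.34. The mean includes the THZ1 libraries, so it rises with the fold. Spearman's coefficient of the fold with mean CPM was 0.28 over 11886 genes, and 0.081 with the DMSO mean alone.

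Among 10680 protein-coding genes, also in 5 bins, the bin with the longest transcripts (5.42 kb or more, by the longest annotated transcript) had 46.4% higher and 19.7% lower. The bin with the shortest had 22.1% higher and 38.2% lower. The same coefficient of the fold with transcript length was 0.21, against 0.12 with gene span and 0.052 with exon number. Transcript length and level themselves gave 0.29. With 3 bins of level and 3 of length within each, the longest transcripts of the top level bin had 57.5% higher and the shortest 39.3%. In the bottom level bin the shares were 17.4% and 17.3%.

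**Figure D5:**
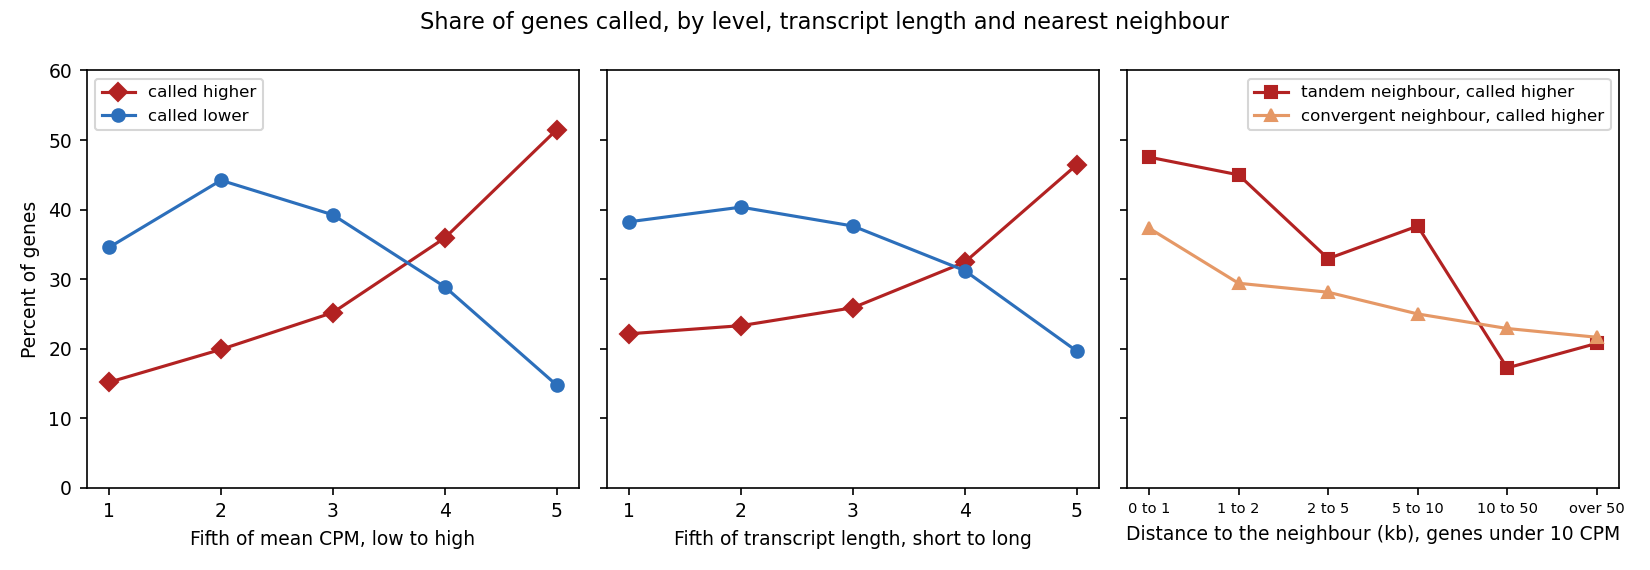
Percent of genes called higher (red diamonds) and lower (blue circles) in 5 equal bins of mean CPM (left) and of transcript length of protein-coding genes (middle), and percent called higher among genes under 10 CPM with DMSO by distance in kb to the nearest expressed neighbour, on the same strand upstream (tandem) or facing it (convergent) (right). The share called higher goes from 15.2% to 51.5% with level, from 22.1% to 46.4% with transcript length, and from 47.5% within 1 kb to 20.8% beyond 50 kb of a tandem neighbour.

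The authors' deposited table for these libraries gave 6771 genes at an adjusted p under 0.05, 2714 higher and 4057 lower with THZ1. Of these, 6476 were also called here, which is 95.6% of the authors' calls and 88.0% of the calls above, each in the same direction. No adjusted p was given in the authors' deposited table for 113 genes.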

How the data were processed

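The members and the gene lists were chosen with earlier results of these data known. The authors deposited, for each gene and library, values taken as raw read counts (whole numbers, per the file headers named by treatment and number only) and FPKM, which are normalized by length and depth. The deposited table also holds the authors' mean normalized signal, log2 fold change, its error and test statistic (score), p-value and adjusted p-value. Per the submitters' processing notes, STAR 2.5.3a, Cufflinks 2.2.1, DESeq2 1.20.0 and build hg19 were used, without roles. The IDs are mouse Ensembl IDs, so that build was used for nothing, and the counter and its strand setting are not given in the sources used here. RNA was made into libraries with a TruSeq RNA kit, per the labels' protocols.

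The 4 libraries were fitted alone with edgeR 4.0.16 (R 4.3.3): TMM, filterByExpr at a minimum count of 10, 1 coefficient per group, quasi-likelihood F test, Benjamini-Hochberg over 11886 genes, called under 0.05. Of 12057 genes, 171 were not tested, 88 of them with 0 counts in every library. Residual degrees of freedom were 2, and the common biological coefficient of variation was 13.3%. The chi-square between libraries of a group was 62.2 per gene for DMSO and 26.1 for THZ1, far above sampling noise, so each library was counted as its own. Standard errors are the fold over the square root of F. Named genes are fixed hedgehog, MYC, cyclin and CDK genes, the 12 of largest fold in each direction (called, mean CPM of at least 5, groups apart, no unnamed models, mt- genes or Lars2), and in each list the 4 called members of largest fold with the largest of the opposite direction. Other members named were chosen after their values were seen, and some genes that the rule names are not reported here. Lists are described by counts and medians, with no set test. Of 19 names turned into dates, 18 were restored by ID. Gene type, length and neighbours came from GENCODE M21 by ID (99.8% matched), and promoters from RefSeq (GRCm38.p6) by symbol. Alternatives were other scalings, filters and tests (DESeq2 1.42.0, limma 3.58.1 on log2(FPKM + 1)), a replicate block and each library left out. The edgeR script was tested on simulated counts. With 2 libraries per group, the number of libraries rather than the depth limits the precision.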

Additional observations from a re-analysis of the deposited data

Results flagged for a closer look

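Gm42418, a gene model known to take up ribosomal RNA reads, had a signal in the deposited FPKM values, which the comparison does not use, while its counts were 0 in all 4 libraries. Its deposited FPKM was 4789.79 and 5964.35 in the THZ1 libraries, against 149 and 90.6 in the DMSO libraries. It was among 88 genes with 0 counts in every library, which together held 0.250% and 0.253% of the summed FPKM with DMSO and 1.44% and 1.90% with THZ1. In 9 of the 88 both THZ1 libraries were above both DMSO libraries in FPKM, and in 40 both were below. Falls outnumbered rises over all genes too on log2(FPKM + 1), where the median tested gene stood at -0.58. There limma called 6624 genes lower and 1039 higher. The share of all genes without overlap in FPKM was not counted.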

How the results depend on the processing

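The count of called genes was 5477 to 7813 with each library left out, with 2700 to 3772 higher, 2777 to 4041 lower and 3167 to 3438 at 2-fold or more, against 7355, 3511, 3844 and 3370. Where a group had 1 library left, it was assumed to vary like the other group. The replicate block gave 7917 called genes; with 2 pairs and a correlation of 0.112 between same-numbered deviations, the labels do not pair the libraries, and no count of all genes moved by over 1.5 times. With library size alone 1956 genes were higher and 5909 lower, under mitochondrial scaling 183 and 9125, with 7880 at 2-fold or more, and with limma on log2(FPKM + 1) 1039 and 6624, because these scalings place the median gene lower. With DESeq2's Wald test 7153 were called. The medians of the spliceosome, GLI, heat shock, hedgehog receptor, MAP kinase, proteasome, stress response, mRNA decay and snoRNA host lists, -0.17 to 0.27, changed sign without some library. Of 207 called named genes 10 lost the call without some library. Signs of single genes were compared across settings only for the 209 genes named by the rule. Mitochondrial scaling placed the median gene at -1.37, against -0.043 under TMM, so smaller rises of other genes named above may change sign too. Among the 209, folds that changed sign under mitochondrial scaling were Ptch1 -0.55, Smo -0.91, Mycn -0.31, Ccnd1 -0.0016, Cdk12 -1.02, Cdk13 -0.69, Mcl1 -0.64, Ercc3 -0.91, Supt5 -0.028, Ccnt2 -0.11, Cdk6 -0.55, Tfdp2 -0.14, E2f6 -0.22, Lig1 -0.88, Knl1 -0.52, Fancc -0.37, Cdkn2d -0.29, Cdkn1a -0.34, Cdkn2a -0.54, Ncam1 -0.17, Sox11 -0.078, Sox6 -0.44, Sox9 -0.64, Hes1 -0.16, Rbpj -0.20, Dusp16 -0.31, Bag3 -0.17, Ankrd37 -0.044, Pgam1 -0.25, Vegfa -0.24, Psmd11 -0.19, Tra2a -0.15, Srsf2 -0.20, Kif3b -0.57, Snhg20 -0.13, H1f0 -0.19, Rpl24 -0.16, Rps29 -0.18, Rplp0 -0.28 and Mrps26 -0.26. On log2(FPKM + 1) they were Smo -0.22, Cdk13 -0.20, Ercc3 -0.18, Lig1 -0.21, Fancc -0.036, Bbc3 -0.091, Rpl24 -0.86, Mrps26 -0.32 and mt-Co3 -2.10, where mt-Co3 is listed at 0 FPKM in THZ1 library 1 with 1877 counts. Besides these, 38 named genes kept their sign but lost the call under mitochondrial scaling, as did 12 with library size alone and 24 on log2(FPKM + 1). Depth was near-equal between libraries, and the number of libraries limits what could be called.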

Other observations

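A pattern in the genes of largest rise was noticed after their values were seen, and is given as values with no explanation. Some of them lie just downstream, on the same strand, of a gene with a higher level. By the GENCODE M21 gene positions, Ly6g5b starts 0.768 kb past the end of Csnk2b (283 CPM with DMSO), Cd68 0.783 kb past Eif4a1 (920.4 CPM) and Lag3 1.98 kb past Ptms (312 CPM). The RefSeq starts used for promoters were not compared with these positions, and a start that differs between them would change the distance. Of the 98 genes raised at least 4-fold from under 10 CPM with DMSO, 6 lay within 2 kb of such a neighbour and overlapped no other gene of the table. With overlapping genes counted in, 57.1% of the 98 lay within 2 kb of such a neighbour or overlapped another gene of the table. Over all tested genes under 10 CPM with DMSO that share was 38.2%. Among genes under 10 CPM with DMSO that overlap no other gene of the table, those within 1 kb of such a tandem neighbour of at least 10 CPM had a median fold of 0.57 and 47.5% called higher (n = 61 genes). The share was 45.0% at 1 to 2 kb (n = 40), 33.0% at 2 to 5 kb (n = 88), 37.6% at 5 to 10 kb (n = 93), 17.2% at 10 to 50 kb (n = 319) and 20.8% beyond 50 kb (n = 1122, median -0.10). For a neighbour facing the gene from downstream it was 37.3% within 1 kb (n = 75). Shares raised at least 4-fold were less graded. Over the same tandem distances, from nearest to farthest, they were 4.92%, 7.5%, 3.41%, 6.45%, 0.940% and 2.67%. With a facing neighbour they were 6.67% within 1 kb and 2.66% beyond 50 kb. Whether the reads of these genes belong to their own transcripts was not tested. For genes of any level whose start lies within 1 kb of a divergent neighbour's start, the median was -0.29, with 41.3% lower (n = 882).

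Pseudogenes of the unprocessed class had a median fold of 1.29, with 13 of 22 called higher and 2 lower, against -0.049 over 10680 protein-coding genes. Over all genes tested 29.5% were higher and 32.3% lower. Whether the reads of these pseudogenes belong to their own transcripts was not tested. Processed pseudogenes, 302 in number, had a median of 0.042.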
